A study of Homo sapiens with 9 samples.

Results

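Torcetrapib was compared with its vehicle in H295R cells, an established line from a human tumour of the adrenal cortex that still produces steroids. Cells received 100 nM torcetrapib, labelled CP-529414, or dimethyl sulfoxide (DMSO) for 3 h, and RNA of each group was measured on 3 Affymetrix arrays. These 6 arrays, chosen by the labelled agent, are part of a series of 9. The other 3 arrays carried cells given 100 nM angiotensin II for 3 h and are not compared here: they entered the model fit, the estimate of the spread between arrays and the choice of probe sets. Of 54675 probe sets on the array 41091 carried a single gene symbol, and each of 19775 genes was followed by 1 probe set, that of the highest mean signal over all 9 arrays, called the brightest here. The question in the series' design text is whether inhibitors of this kind turn on the renin-angiotensin-aldosterone system in adrenal cells. H295R is a single tumour line, and whether a group's arrays stem from separate cultures is not in the labels. P-values therefore cover only the spread seen between these samples, and that spread may be technical. Because RNA of many cells together was measured, fewer cells that use a gene and less of its RNA per cell cannot be told apart.

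Torcetrapib blocks the cholesteryl ester transfer protein (CETP), a plasma protein that moves cholesteryl esters out of high density lipoprotein. Blood pressure and aldosterone rose in a trial of torcetrapib. Aldosterone is made in the outer zone of the adrenal cortex, the zona glomerulosa, under the control of angiotensin II and potassium, which act largely through calcium, and of corticotropin (ACTH), which acts through cyclic AMP (cAMP). Both routes reach the transcription factor CREB and its relatives, which bind the cAMP response element. Their early targets include immediate early genes, which are transcribed without the need for new protein, among them the NR4A nuclear receptors that bind the promoter of aldosterone synthase, CYP11B2.

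The 3 torcetrapib arrays had a higher 5′ signal than the DMSO arrays. The measure used was an index, the log2 difference between control probe sets at the 5′ and the 3′ end, averaged for ACTB and GAPDH, which falls when RNA is shortened or copied incompletely. It stood at -0.719, -0.276 and -0.504 on DMSO replicates 1, 2 and 3, and at -0.275, -0.219 and -0.233 on the torcetrapib arrays. The torcetrapib arrays lay close together and above all DMSO arrays, while DMSO replicate 2 lay next to them. The exact permutation test (two-sided) gave p = 0.1, the smallest that 3 against 3 arrays allow, and the same for ACTB alone, while GAPDH alone gave p = 0.3. The difference of the group means, 0.257, was 0.148 without DMSO replicate 1 and 0.369 without DMSO replicate 2. Between the 5′ and the middle control probe sets it was 0.0957, with overlapping groups and an exact p = 0.3. Of 9 adrenocortical markers 8 had signals above that of the median gene, against 2 of 8 for the adrenal medulla, 1 of 7 for fibroblasts, 0 of 5 for endothelium and 0 of 5 for leukocytes. None of these markers changed (limma, 0 by adjusted p and 1, an endothelial one, at an unadjusted p under 0.05). The summed signal of the adrenocortical markers ran from 81.6 to 82.2 with DMSO and from 81.4 to 82.0 with torcetrapib. The titles number the samples consecutively within a group, so order of processing and treatment cannot be told apart.

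**Figure D1:**
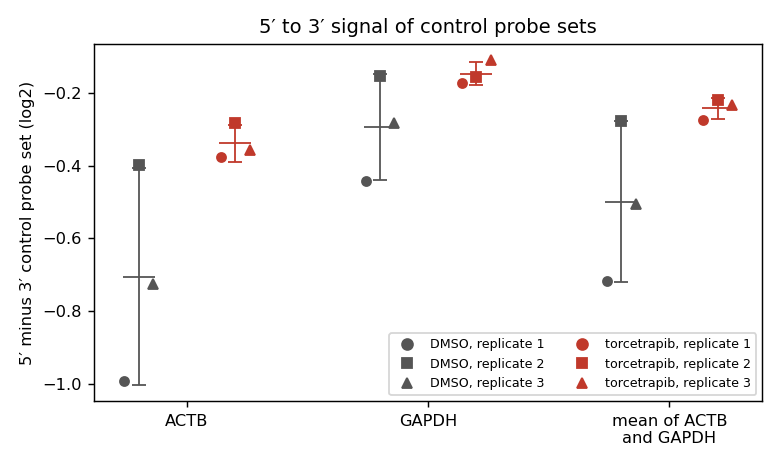
The 5′ minus 3′ signal of the ACTB and GAPDH control probe sets and their mean on each array (log2, points), with the group mean and SD (bars, 3 arrays a group). The mean index of the torcetrapib arrays lies between -0.275 and -0.219, and DMSO replicate 2 at -0.276 is the DMSO array nearest to them.

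With torcetrapib a small set of genes rose strongly and others fell slightly. A gene is said here to have risen or fallen when its Benjamini-Hochberg adjusted p over all genes in limma was at or under 0.05. By that rule 117 genes rose (0.592% of all genes tested) and 112 fell (0.566%), which makes 1.16% in all. The rises had a median size of 0.47 and reached 3.63 on the log2 scale, and the falls had a median size of 0.28 and reached 0.75. At least 2-fold changes numbered 13 among the rises and 0 among the falls (limma, 2639 genes in all at an unadjusted p under 0.05). The median gene changed by -0.03, by -0.04 after the arrays were centred on their medians and by -0.04 after they were quantile normalised again. The share of rises among the called genes depended on that choice, at 51.1% as deposited, 65.8% after centring and 33.7% after quantile normalisation.

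The largest rise was of NR4A2 (also known as NURR1), and all 3 NR4A receptors rose. These are orphan nuclear receptors that act as transcription factors without a known hormone ligand. NR4A2 lay at 6.51, 6.01 and 6.23 on the DMSO arrays and at 9.76, 9.85 and 10.03 on the torcetrapib arrays, in log2 units as for all array values here. The groups stood far apart, and the spread within each was small beside the gap between them. The log2 change was 3.63 ± 0.10 (SE), or 12.4-fold (adjusted p = 1.36e-11). NR4A3 (NOR1) lay at 9.41, 9.35 and 9.50 with DMSO and at 10.83, 10.91 and 10.90 with torcetrapib, a change of 1.46 ± 0.05 (adjusted p = 2.94e-11). NR4A1 (NUR77) lay at 10.53, 10.44 and 10.52 and then at 11.83, 11.95 and 11.81, a change of 1.36 ± 0.04 (adjusted p = 2.72e-11). No torcetrapib array of either gene came near a DMSO array. With the index as a term in the model the changes of NR4A2, NR4A3 and NR4A1 were 3.90, 1.49 and 1.41.

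The AP-1 factors and their relatives rose in part. AP-1 is the family of dimers of FOS, JUN and ATF proteins that carries signals into transcription. FOS lay at 6.53, 6.59 and 6.53 with DMSO and at 7.59 on each of the torcetrapib arrays, a change of 1.04 ± 0.07 (adjusted p = 1.98e-07). ATF3, a stress-induced member, lay at 7.06, 7.06 and 7.26 and then at 7.99, 8.13 and 7.99, a change of 0.91 ± 0.07 (adjusted p = 1.82e-06). Both genes had groups that did not overlap, as 16.5% of all genes did, 6.04% with the torcetrapib arrays above and 10.5% with them below. By its second brightest probe set ATF3 was not called (0.50, adjusted p = 0.0817). Nor was it called without the _x_at and _s_at probe sets described below. JUN rose by 0.42 ± 0.06, JUNB by 0.29 ± 0.05 and FOSL2 by 0.28 ± 0.06, and MAFF, a small MAF protein that pairs with other leucine zipper factors, by 0.41 ± 0.08. FOSB lay at 7.70, 7.07 and 7.38 with DMSO and at 7.70, 7.96 and 8.003 with torcetrapib. Its groups overlapped at 7.70, and its change of 0.50 ± 0.12 did not pass (adjusted p = 0.064). With the index in the model it was 0.84 (adjusted p = 0.0026). The FOSL2 call ended without any one array other than DMSO replicate 2 and the MAFF call without DMSO replicate 1 or any one torcetrapib array, with adjusted p up to 0.146 and 0.128.

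Among zinc finger factors of the immediate early class the Krüppel-like factors KLF6, KLF2 and KLF4 rose. KLF6 lay at 10.13, 9.92 and 10.12 with DMSO and at 10.53, 10.62 and 10.55 with torcetrapib, a change of 0.51 ± 0.06 (adjusted p = 0.000287). KLF2 rose by 0.48 ± 0.06 and KLF4 by 0.47 ± 0.09. KLF3, a repressor of the same family, fell by 0.25 and SP6 fell by 0.51 on the log2 scale. In all 17 family members were measured and 5 were called, where 1.16% of all genes were called. EGR1, the factor most often used as a marker of early transcription, did not pass. It lay at 11.95, 12.31 and 12.07 with DMSO and at 12.09, 12.17 and 12.27 with torcetrapib, overlapping groups with a change of 0.07 ± 0.08 and a 95% interval from -0.10 to 0.23. MYC and SRF did not pass either, at -0.14 ± 0.07 and 0.03 ± 0.09. CSRNP1, a nuclear protein induced by AXIN1, rose by 0.43 ± 0.07 and IER2 by 0.20 ± 0.04. The calls of KLF4 and IER2 ended without DMSO replicate 1 or any one torcetrapib array (adjusted p up to 0.119 and 0.0963), and that of SP6 without any one array other than DMSO replicate 2 (up to 0.124).

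In all, 14 of 27 measured immediate early transcription factors rose and 0 fell (limma, 16 at an unadjusted p under 0.05), where 0.592% of all genes rose. Their median change was 0.28, against -0.03 for all genes. With the index in the model 12 rose, among them FOSB, which was not called without it. That list was drawn up with earlier results of these data known, so its count is a description.

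**Figure D2:**
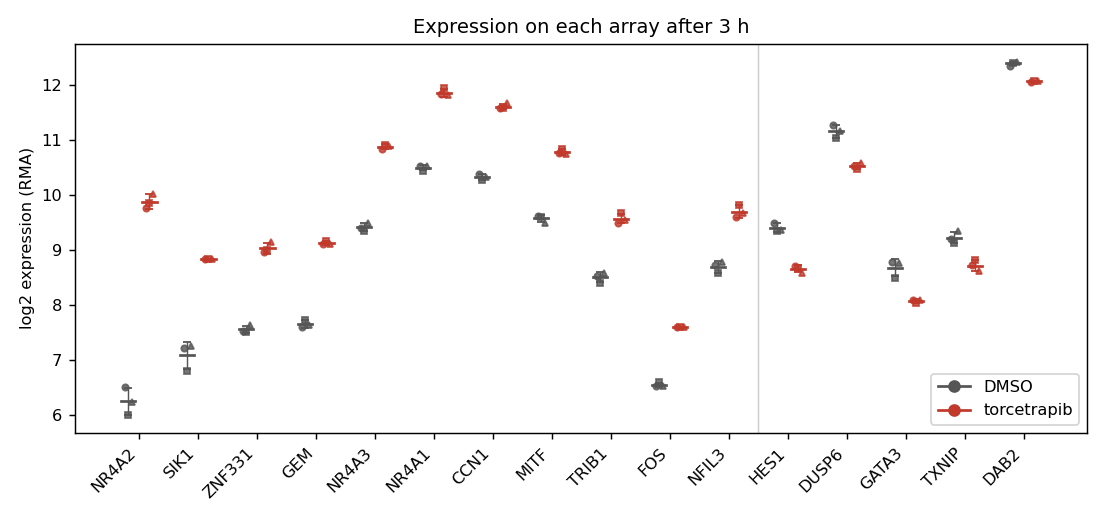
Log2 expression of 16 genes on each array after 3 h with DMSO (grey) or torcetrapib (red), points being single arrays and bars the mean with SD (3 arrays a group). The 11 genes left of the line rose and the 5 right of it fell. None of the 16 has overlapping groups, which holds for 228 of the 229 called genes. NR4A2 runs from 6.01 to 6.51 with DMSO and from 9.76 to 10.03 with torcetrapib, and DAB2 from 12.35 to 12.41 and from 12.05 to 12.08.

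The promoters of the leading rises show where the motif bound by CREB occurs in them. The cAMP response element is TGACGTCA, and its shorter core TGACG is bound as well. Promoters here are the RefSeq sequences from 250 bases before to 50 after each gene's start (GRCh38.p14), which were matched for 92 of the 117 genes that rose and 89 of the 112 that fell. Both strands were searched, so the core appears below as TGACG or as CGTCA. The 4 shown first were chosen from leading rises because they hold the core, and capitals mark each match. SIK1 (chr21:43427082-43427381, minus strand) holds it 217, 137 and 126 bases before the start, ZNF331 (chr19:53520764-53521063, plus strand) 56 bases before it, NR4A3 (chr9:99821635-99821934, plus strand) 109, 91, 83 and 25 bases before it and FOS (chr14:75278578-75278877, plus strand) 64 bases before it, counted to the first base of the match.
SIK1: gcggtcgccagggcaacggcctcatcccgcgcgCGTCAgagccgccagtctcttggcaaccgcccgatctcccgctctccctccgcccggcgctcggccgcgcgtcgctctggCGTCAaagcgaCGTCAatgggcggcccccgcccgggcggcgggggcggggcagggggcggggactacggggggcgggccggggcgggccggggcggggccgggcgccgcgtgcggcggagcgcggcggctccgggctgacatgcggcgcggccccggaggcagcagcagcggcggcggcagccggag
ZNF331: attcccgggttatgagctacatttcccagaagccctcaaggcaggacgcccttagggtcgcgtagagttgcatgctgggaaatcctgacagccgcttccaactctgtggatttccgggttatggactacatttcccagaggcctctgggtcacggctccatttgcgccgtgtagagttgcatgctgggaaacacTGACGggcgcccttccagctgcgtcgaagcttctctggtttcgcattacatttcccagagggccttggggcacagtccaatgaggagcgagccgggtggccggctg
NR4A3: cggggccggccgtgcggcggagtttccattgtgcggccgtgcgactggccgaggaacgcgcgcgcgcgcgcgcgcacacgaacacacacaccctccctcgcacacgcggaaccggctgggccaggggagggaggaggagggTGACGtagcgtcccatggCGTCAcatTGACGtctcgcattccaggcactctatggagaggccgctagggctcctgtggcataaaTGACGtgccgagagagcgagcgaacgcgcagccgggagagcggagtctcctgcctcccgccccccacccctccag
FOS: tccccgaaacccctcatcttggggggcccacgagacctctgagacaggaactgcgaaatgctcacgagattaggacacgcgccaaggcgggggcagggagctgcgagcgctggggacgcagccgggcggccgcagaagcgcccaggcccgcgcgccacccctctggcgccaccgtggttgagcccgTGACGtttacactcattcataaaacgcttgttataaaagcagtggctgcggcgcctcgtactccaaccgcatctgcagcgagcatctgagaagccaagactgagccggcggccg

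None of these 4 promoters holds the whole element. Among matched promoters of genes that rose more than FOS, those of NR4A1, MITF and H1-3 hold no match to the core. Promoters of NR4A2, GEM, CCN1, TRIB1, BAGE2 and C11orf96 were not analysed here. The largest rise with a matched promoter that holds the whole element is DUSP1 (chr5:172771146-172771445, minus strand), which was added after its values were seen. The element starts 125 bases before its start, and capitals mark the whole element only.
DUSP1: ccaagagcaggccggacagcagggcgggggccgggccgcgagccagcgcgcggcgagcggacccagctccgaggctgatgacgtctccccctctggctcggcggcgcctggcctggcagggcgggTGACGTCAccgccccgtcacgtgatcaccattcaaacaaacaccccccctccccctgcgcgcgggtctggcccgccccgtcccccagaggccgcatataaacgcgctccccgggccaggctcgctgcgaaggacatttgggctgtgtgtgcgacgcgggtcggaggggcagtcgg

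The core TGACG was present in 41 of the 92 promoters of genes that rose (44.6%) and in 27.0% of those of genes that fell. It was present in 6828 of all 27305 promoters of that length and in 29.7% of those of the genes tested. Among genes that rose at least 1.5-fold 15 of 27 promoters held it (55.6%). The whole element, whose matches are part of those of the core, was present in 6 of the 92 (6.52%), in 1.12% of the promoters of genes that fell, in 2.67% of those of the genes tested and in 1.98% of all. Among genes that rose at least 1.5-fold 1 of 27 held it (3.70%). The AP-1 motif TGANTCA was present in 3.26% of the promoters of genes that rose and in 5.83% of those of the genes tested, the NR4A monomer site AAAGGTCA in 1.09% and 0.897%. The EGR motif GCGNGGGCG was present in 19.6% of the promoters of genes that rose, in 22.5% of those of genes that fell and in 13.0% of those of the genes tested. These shares describe letters in a window and were not tested.

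Among signalling genes around cAMP and CREB 9 of 28 measured members rose and 0 fell (limma, 12 at an unadjusted p under 0.05). Over all genes 0.592% rose and 0.566% fell. The median change of the list was 0.06. FOS and the 3 NR4A receptors are among its rises and were already counted with the immediate early factors. This list too was drawn up with earlier results of these data known, so its count is a description. SIK1 is a salt-inducible kinase that holds the CREB coactivators (CRTC proteins) in the cytoplasm. It lay at 7.21, 6.81 and 7.25 with DMSO and at 8.83, 8.84 and 8.83 with torcetrapib, a change of 1.74 ± 0.09 (adjusted p = 2.38e-08). DMSO replicate 2 was its lowest array, and the torcetrapib arrays were nearly equal. CREM, a CREB relative whose short form ICER represses the same targets, lay at 11.16, 11.02 and 11.09 and then at 11.33, 11.35 and 11.42, a change of 0.28 ± 0.04 (adjusted p = 0.00475). PDE4B, a phosphodiesterase that breaks down cAMP, lay at 6.60, 6.63 and 6.82 and then at 7.27, 7.35 and 7.13, a change of 0.57 ± 0.09 (adjusted p = 0.00454). All of these groups were separate, as in 16.5% of all genes. The other rises of this list were the 3 NR4A receptors, FOS, DUSP1 and GEM. The kinases SIK2 and SIK3 and the coactivators CRTC1 and CRTC2 had changes from -0.10 to 0.04 and did not pass. PDE4D, at 0.14 ± 0.07, did not pass either. NPAS4, a CREB target tied to calcium entry, lay at 5.16, 5.45 and 4.99 with DMSO and at 4.98, 5.45 and 5.25 with torcetrapib, groups that overlapped.

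GEM is a small GTPase of the RGK class, which keeps voltage-gated calcium channels from the cell surface. It lay at 7.60, 7.73 and 7.63 with DMSO and at 9.10, 9.16 and 9.10 with torcetrapib, a change of 1.47 ± 0.06 (adjusted p = 1.19e-09). Every torcetrapib array lay well above every DMSO array. Its 3 relatives did not pass, with REM1 at -0.17 ± 0.13, RRAD at -0.15 ± 0.12 and REM2 at -0.08 ± 0.10. Of 40 measured genes of calcium channels, stores and calcineurin 0 rose and 0 fell (limma, 6 at an unadjusted p under 0.05), and their median change was -0.08. As 1.16% of all genes were called, that count does not set the list apart from all genes. The channel CACNA1D, mutated in some aldosterone-producing tumours, lay at 9.11, 9.16 and 9.19 with DMSO and at 8.88, 8.997 and 9.09 with torcetrapib. Those groups did not overlap, but the change of -0.17 ± 0.07 did not pass (adjusted p = 0.277). In 10.5% of all genes the torcetrapib arrays lay below all DMSO arrays. CACNA1H had a change of -0.01 ± 0.09 and CACNA1C one of -0.22 ± 0.08 (adjusted p = 0.22). RCAN1, a target and inhibitor of calcineurin, had a change of 0.02 ± 0.06 by its brightest probe set.

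Feedback regulators of MAP kinases and G proteins moved in both directions. Of 27 measured members 6 rose, 3 fell and the median change was -0.01, where 0.592% of all genes rose and 0.566% fell. DUSP1, a phosphatase that switches off MAP kinases in the nucleus, lay at 9.27, 9.26 and 9.39 with DMSO and at 10.18 on each torcetrapib array, a change of 0.88 ± 0.05 (adjusted p = 2.38e-08). DUSP6, a phosphatase of the kinase ERK in the cytoplasm, lay at 11.27, 11.03 and 11.17 and then at 10.53, 10.46 and 10.57, and fell by 0.63 ± 0.06 on the log2 scale (adjusted p = 1.13e-05). Both had separate groups, as did 16.5% of all genes, and they moved in opposite directions on the same arrays. TRIB1, a pseudokinase that directs proteins to degradation, lay at 8.52, 8.40 and 8.58 and then at 9.50, 9.66 and 9.55, a change of 1.07 ± 0.06 (adjusted p = 2.3e-08). Its relative TRIB2 lay at 9.60, 9.55 and 9.75 and then at 9.21, 9.15 and 9.07, and fell by 0.49 (adjusted p = 0.000502). The other probe set of TRIB2 gave -0.04, and the mean of both was not called (-0.27, adjusted p = 0.165). SPRY2, an inhibitor of growth factor receptor signalling, rose by 0.60 ± 0.07, RGS2, which speeds the switching off of Gq proteins, by 0.38 ± 0.06, DUSP16 by 0.27 ± 0.05 and ERRFI1, an inhibitor of EGF receptors, by 0.25 ± 0.05, while DUSP5 fell by 0.25. With the index in the model DUSP1, TRIB1, SPRY2, DUSP6 and TRIB2 were called. Calls of RGS2 ended without torcetrapib replicate 1 or 2 (adjusted p = 0.0526 and 0.0511), and those of DUSP16, ERRFI1 and DUSP5 without each of 4 single arrays (up to 0.106, 0.183 and 0.0992), DMSO replicate 3 and torcetrapib replicates 1 and 2 in all of them, with DMSO replicate 1 for the first pair and torcetrapib replicate 3 for DUSP5.

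Regulators of mRNA decay and growth gave 3 rises and 2 falls among 16 measured genes, where 0.592% of all genes rose and 0.566% fell. ZFP36L2, which binds AU-rich elements and speeds mRNA decay, lay at 11.42, 11.17 and 11.34 with DMSO and at 11.87, 11.89 and 11.89 with torcetrapib, a change of 0.58 ± 0.05 (adjusted p = 6.35e-06). GADD45A, a stress-induced growth brake, rose by 0.60 ± 0.05 and TOB1, an antiproliferative protein, by 0.38 ± 0.04. DDIT4L, an inhibitor of mTOR signalling, fell by 0.30 ± 0.04 and BTG1 fell by 0.21. The BTG1 call ended without DMSO replicate 1 or any one torcetrapib array (adjusted p up to 0.107). Without _x_at and _s_at probe sets the BTG1 change was 0.12. Probe sets of those types can match more than 1 transcript.

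Several further transcription factors rose. ZNF331, a KRAB zinc finger gene, lay at 7.53, 7.51 and 7.63 with DMSO and at 8.96, 8.99 and 9.15 with torcetrapib, a change of 1.47 ± 0.07 (adjusted p = 4.08e-09). Of 468 zinc finger genes whose symbol begins with ZNF, ZNF331 and ZNF549 rose and ZNF618 and ZNF711 fell. That is 0.855% of them, close to the 1.16% called among all genes. MITF, the factor of pigment cells that also works with TFEB and TFE3 on lysosome genes, lay at 9.63, 9.60 and 9.49 and then at 10.76, 10.84 and 10.75, a change of 1.21 ± 0.05 (adjusted p = 8e-10). Its relatives TFE3, TFEC and TFEB had changes of -0.11, 0.02 and 0.01 and did not pass. NFIL3, a repressor of the D-box genes of the circadian clock, lay at 8.72, 8.57 and 8.78 and then at 9.60, 9.82 and 9.67, a change of 1.00 ± 0.06 (adjusted p = 1.98e-07). It was the only call among 16 clock genes. The D-box activators DBP and TEF did not pass, at -0.22 ± 0.06 (adjusted p = 0.0842) and -0.30 ± 0.08 (0.0988). All their torcetrapib arrays lay below all DMSO arrays, as in 10.5% of all genes, and a link to NFIL3 was not tested. The call of ZNF549 ended without any one array other than DMSO replicate 2 (adjusted p up to 0.183), and that of ZNF618 without torcetrapib replicate 3 (0.0669).

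NFKBIZ, which tunes NF-kappa-B in the nucleus, lay at 7.91, 7.62 and 7.87 with DMSO and at 8.35, 8.43 and 8.59 with torcetrapib, a change of 0.65 ± 0.08 (adjusted p = 0.000409). REL rose by 0.38 ± 0.08, and the other 11 of 13 measured regulators of NF-kappa-B did not pass. The share called among all genes was 1.16%, to be set beside this list and those that follow. The REL call ended without DMSO replicate 1 or any one torcetrapib array (adjusted p up to 0.135). CCN1, a matricellular protein that many stimuli induce within hours, lay at 10.38, 10.28 and 10.32 and then at 11.57, 11.59 and 11.66, a change of 1.28 ± 0.04 (adjusted p = 2.72e-11). None of the other 17 measured CCN proteins and YAP targets passed. TIPARP, a target of the aryl hydrocarbon receptor AHR, lay at 8.69, 8.69 and 8.85 and then at 9.52, 9.64 and 9.60, a change of 0.84 ± 0.06 (adjusted p = 4.03e-07). AHR itself and CYP1A1, its classical target, had changes of 0.04 ± 0.07 and -0.07 ± 0.08, so TIPARP was the single call of 25 oxidative and xenobiotic response genes. TAC1, the precursor of the tachykinin substance P, lay at 4.02, 3.92 and 4.37 and then at 4.77, 5.31 and 4.82, a change of 0.86 ± 0.17 (adjusted p = 0.0214). It was the only rise among the 31 measured members of a list of growth factors and cytokines, which does not hold every such gene. Its call ended without DMSO replicate 1 (0.116) and without torcetrapib replicate 1, 2 or 3 (0.0521, 0.122 and 0.072).

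Among the 12 largest falls were those of HES1, GATA3 and TXNIP. HES1, a repressor at the end of the Notch pathway, lay at 9.50, 9.34 and 9.37 with DMSO and at 8.71, 8.67 and 8.59 with torcetrapib, and fell by 0.75 ± 0.09 on the log2 scale (adjusted p = 0.000286). It was the only call among 20 measured Notch genes, where 1.16% of all genes were called. GATA3, a zinc finger factor, lay at 8.78, 8.498 and 8.76 and then at 8.10, 8.03 and 8.08, and fell by 0.61 ± 0.10 (adjusted p = 0.0042). DAB2, an endocytic adaptor that marks the zona glomerulosa, lay at 12.35, 12.41 and 12.41 and then at 12.05, 12.07 and 12.08, and fell by 0.32 ± 0.03 (adjusted p = 9.3e-05). In each of the 3 genes the torcetrapib arrays lay below all DMSO arrays, as in 10.5% of all genes. For HES1 and GATA3 that was a condition of being counted among the 12 largest falls. When its 7 probe sets were averaged DAB2 was not called (-0.18, adjusted p = 0.191), nor was it by the second brightest (-0.21, adjusted p = 0.0896). TXNIP, which binds thioredoxin and restrains glucose uptake, lay at 9.20, 9.13 and 9.34 and then at 8.72, 8.81 and 8.61, and fell by 0.51 (adjusted p = 0.0028). PDK4, the kinase that shuts off pyruvate dehydrogenase, rose by 0.26 ± 0.03, from 12.57, 12.51 and 12.58 to 12.80, 12.81 and 12.83. With the index in the model HES1 and DAB2 were called, with changes of -0.67 and -0.35, while GATA3 and TXNIP were not, at -0.46 and -0.47 (adjusted p = 0.24 and 0.096).

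The machinery of steroid synthesis changed little within 3 h. Of 14 measured steroid synthesis enzymes 0 rose and 0 fell (limma, 2 at an unadjusted p under 0.05), and their median change was -0.04. As 1.16% of all genes were called, a count of 0 among 14 does not set these enzymes apart from all genes. CYP11B2, aldosterone synthase, lay at 5.41, 5.82 and 5.86 with DMSO and at 5.79, 5.93 and 5.80 with torcetrapib. The groups overlapped, and the change of 0.14 ± 0.15 had a 95% interval from -0.18 to 0.47. All of these CYP11B2 signals lay below that of the median gene (6.73), and why its interval was wide was not tested. CYP11B1, which makes cortisol, had a change of -0.14 ± 0.09, CYP11A1, which cuts the cholesterol side chain, one of -0.08 ± 0.04, CYP17A1 one of -0.12 ± 0.06 and HSD3B2 one of -0.03 ± 0.06. STAR, which brings cholesterol into mitochondria, lay at 11.79, 11.88 and 11.85 and then at 11.93, 11.93 and 11.88. Its torcetrapib arrays lay just above its DMSO arrays, and the change of 0.08 ± 0.04, with an interval from -0.01 to 0.16, did not pass. The corticotropin receptor MC2R also had torcetrapib arrays above all DMSO arrays and did not pass, at 0.21 ± 0.10 (adjusted p = 0.4). The same separation was found in 6.04% of all genes. FDX1, the ferredoxin that feeds electrons to the mitochondrial steroid hydroxylases, was the only rise among 9 genes of cholesterol entry and electron transfer. It lay at 11.48, 11.80 and 11.64 and then at 11.98, 12.04 and 11.99, a change of 0.37 ± 0.06 (adjusted p = 0.00717). Its DMSO arrays followed the index, with replicate 2 highest and replicate 1 lowest. With the index in the model its change was 0.18 and did not pass (adjusted p = 0.31), and its call also ended without torcetrapib replicate 2 (0.0567).

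Of 14 genes of the renin-angiotensin-aldosterone system and its steroid receptors 0 changed (limma, 2 at an unadjusted p under 0.05). Among all genes 1.16% did, so a count of 0 in so short a list does not set it apart. The angiotensin receptor AGTR1 lay at 11.92, 12.12 and 11.98 with DMSO and at 11.94, 11.93 and 11.93 with torcetrapib, overlapping groups with a change of -0.07 ± 0.04. SGK1, a kinase that aldosterone induces in the kidney, lay at 10.38, 10.46 and 10.39 and then at 10.65, 10.67 and 10.57, and did not pass (0.22 ± 0.06, adjusted p = 0.0867). Among 15 potassium channels and sodium pump subunits KCNJ5, the channel mutated most often in aldosterone-producing adenomas, was the single call and fell by 0.27 ± 0.05 (adjusted p = 0.015). It lay at 10.42, 10.30 and 10.47 and then at 10.12, 10.10 and 10.13. That call ended without any one array other than DMSO replicate 2 (adjusted p up to 0.0848), and the mean over its 6 probe sets changed by 0.00112. KCNK3 had a change of -0.13 ± 0.07. Among 21 zona glomerulosa markers and WNT targets NDP (norrin), which activates a WNT receptor, fell by 0.56 beside DAB2, a call that ended without DMSO replicate 1 or torcetrapib replicate 1 or 3 (adjusted p = 0.0766, 0.0838 and 0.0923). None of the 15 measured members of the list of the ACTH receptor and adrenal identity factors changed but GATA3. That list also counts the gene SF1, which is splicing factor 1 and not a factor of adrenal identity. NR5A1 (steroidogenic factor SF-1), the master regulator of steroidogenic genes, had a change of 0.16 ± 0.14.

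The called members of the lists of cholesterol synthesis and uptake were 3 small falls. CETP, the target of the drug, gave a low signal of 3.85, 3.75 and 4.06 with DMSO and of 3.81, 4.25 and 3.72 with torcetrapib, with a change of 0.04 ± 0.13. Of 21 measured cholesterol synthesis genes 3 fell and 0 rose, and of 19 genes of cholesterol uptake, storage and efflux 0 changed (limma, 7 and 2 at an unadjusted p under 0.05). Over all genes 0.566% fell and 1.16% changed. LSS, lanosterol synthase, fell by 0.20, INSIG1, which holds the sterol sensor complex in the endoplasmic reticulum, fell by 0.18 and MSMO1 fell by 0.18 on the log2 scale (adjusted p = 0.0319, 0.0372 and 0.0467). SREBF2, the factor that drives the pathway, lay at -0.28 ± 0.07 and missed the threshold (adjusted p = 0.0772). Fatty acid genes belonged to no list, and 3 that fell are named after their values were seen, FASN (fatty acid synthase) by its place among the 12 largest falls. FASN fell by 0.49 ± 0.10, the desaturase SCD fell by 0.23 ± 0.05 and the citrate lyase ACLY fell by 0.19 ± 0.04. The other probe set of FASN gave -0.01, and the mean of both was not called (-0.25, adjusted p = 0.202). The calls of LSS, INSIG1, MSMO1, FASN and SCD each ended without any one array other than DMSO replicate 2, and that of ACLY without DMSO replicate 3 or any one torcetrapib array (adjusted p up to 0.154, 0.189, 0.194, 0.131, 0.116 and 0.167). With the index in the model none of the 6 passed.

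In lists of stress, BMP, histone and chromatin genes 1 or 2 members were called. Among 27 genes of the unfolded protein response and ER stress only HERPUD1 rose, by 0.17 ± 0.04, and among 14 heat shock chaperones only DNAJA1, by 0.23 ± 0.05, and both calls ended without any one array other than DMSO replicate 2 (adjusted p up to 0.156 and 0.177). ANKRD37 (0.79 ± 0.15) and VHL (0.63 ± 0.11) rose among 19 hypoxia genes, both lost without single arrays, ANKRD37 without each torcetrapib array (up to 0.0931) and VHL without any one array other than DMSO replicate 2 (up to 0.0826). ID1 rose by 0.41 ± 0.08 and DAND5, an antagonist of nodal signalling, fell by 0.53 among 18 BMP, activin and ID genes. In the model with the index ANKRD37 was called, at 1.10, while VHL (0.30, adjusted p = 0.631), DNAJA1 (0.09, 0.998), HERPUD1 (0.12, 0.658) and ID1 (0.26, 0.65) were not. The ID1 call ended without DMSO replicate 1 or torcetrapib replicate 1 or 2 (0.0767, 0.108 and 0.105), and the DAND5 call without DMSO replicate 3 or torcetrapib replicate 2 or 3 (0.069, 0.0581 and 0.0887). The linker histone H1-3 lay at 8.46, 8.72 and 8.12 with DMSO and at 9.79, 9.54 and 9.57 with torcetrapib, a change of 1.204 ± 0.18 (adjusted p = 0.00325), and was the only call of 15 histone genes. Histone genes resemble each other in sequence, so its signal may be shared with others, and with the index in the model its change of 1.05 did not pass (adjusted p = 0.13). KMT2B, a histone methyltransferase, fell by 0.50 and was the only call of 27 chromatin regulators, lost without DMSO replicate 1 or 3 or torcetrapib replicate 1 or 3 (0.116, 0.0975, 0.0766 and 0.111). No gene was called among 32 cell cycle genes, 34 of the mitochondrial respiratory chain, 28 cytosolic ribosomal proteins or 20 interferon-induced genes (limma, 9, 4, 3 and 2 at an unadjusted p under 0.05). As 1.16% of all genes were called, no call or a single call in lists of these sizes does not set them apart from all genes. The hypoxia list and the BMP, activin and ID list had 2 calls each, 10.5% and 11.1% of their measured members. Those shares are descriptions and were not tested.

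**Figure D3:**
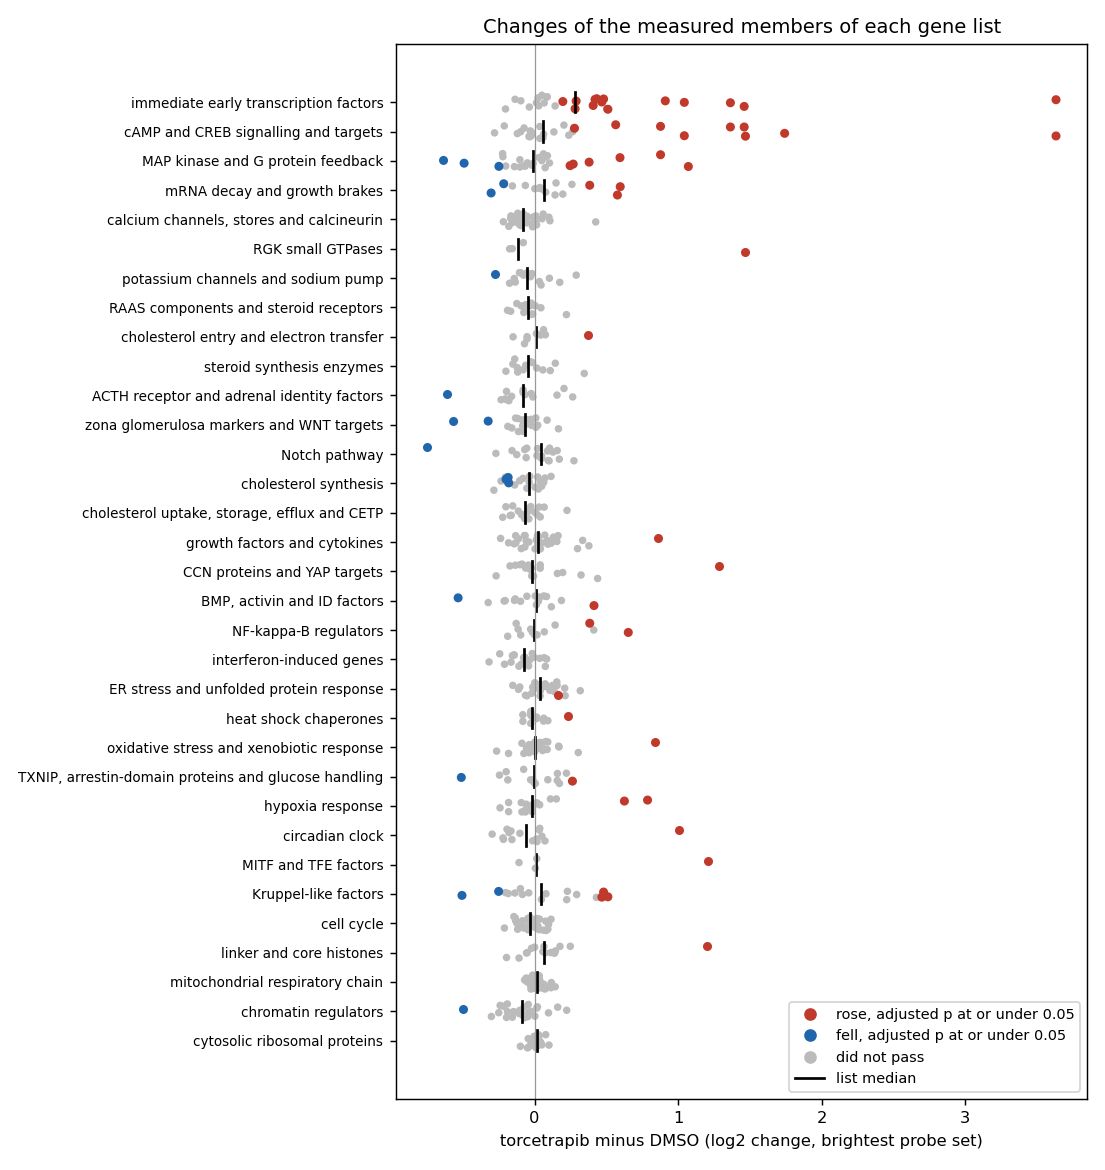
Log2 change with torcetrapib (brightest probe set, torcetrapib minus DMSO) of each measured member of 33 gene lists, with rises in red, falls in blue, other members in grey and a black bar at each list's median. The immediate early transcription factors are the list with most rises, 14 of 27, and a median of 0.28, while the medians of calcium genes and steroid synthesis enzymes lie at -0.08 and -0.04.

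Genes outside the lists made up 165 of the 229 calls. The largest rises among them were of BAGE2, a cancer-testis antigen gene, from 6.37, 6.78 and 6.69 to 7.58, 7.51 and 7.75 (1.00 ± 0.11, adjusted p = 0.000139), and of PCGF3-AS1, an antisense RNA, by 0.99 ± 0.16. BAGE2 belongs to a family of near-identical copies, so its signal is uncertain, and PCGF3-AS1 did not pass with the index in the model (adjusted p = 0.32). Nor did PIP5K1A and SNORA21, named next, whose changes were then 0.51 and 0.52 (adjusted p = 0.756 and 0.571). CIMIP2B rose by 0.92 ± 0.10, C11orf96 by 0.90 ± 0.08, the lipid kinase PIP5K1A by 0.87 ± 0.17 and the small nucleolar RNA SNORA21 by 0.87 ± 0.15. Whether the probe set of PCGF3-AS1 keeps the strands apart is not given in the sources used here, so signal of its sense partner cannot be told apart. The largest fall among them was of the RNA gene LINC02239, by 0.71, and ATN1 fell by 0.47. PIP5K1A lay at 8.99, 9.58 and 8.59 with DMSO, a wide spread, and at 9.95, 9.94 and 9.90 with torcetrapib. Calls of PIP5K1A ended without any one array other than DMSO replicate 2, of SNORA21 without DMSO replicate 1 or 3 or torcetrapib replicate 3, of LINC02239 without DMSO replicate 1 or torcetrapib replicate 1 or 3 and of ATN1 without DMSO replicate 1 or 3 or torcetrapib replicate 2 or 3 (adjusted p up to 0.121, 0.0775, 0.113 and 0.198).

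Rises and falls differed in how they stood to the index. Among the 112 falls DMSO replicate 2, whose index was nearest to the torcetrapib arrays, was the lowest DMSO array in 86 (76.8%), while it was the lowest in 44.1% of all genes. Among the 117 rises it was the highest DMSO array in 40 (34.2%), while it was the highest in 26.7% of all genes. With the index as a term in the model 71 genes rose (0.359% of genes tested) and 5 fell (0.0253%). Of the 117 rises 51 were among them, and of the 112 falls 5, namely HES1, DUSP6, TRIB2, DAB2 and DDIT4L. Rises named above that did not pass with it also included FOSL2, IER2, JUNB, PDE4B, RGS2, DUSP16, ERRFI1, REL, TAC1 and ZNF549. The median change of the rises was 100.3% of that without the index by the median ratio over genes, and that of the falls 78.6%. The median SE went from 0.0677 to 0.0892 for the rises and from 0.0530 to 0.0695 for the falls, and all 229 genes kept their sign. The index ran from -0.719 to -0.276 on the DMSO arrays and from -0.275 to -0.219 on the torcetrapib arrays. On the angiotensin II arrays it ran from -0.627 to -0.597, so its term rests mainly on the 3 DMSO arrays. It also differs between the groups compared, so its effect and that of treatment cannot be fully told apart. Falls were smaller than rises, at medians of 0.28 and 0.47, and whether their loss of calls stems from that was not tested. Without DMSO replicate 2 the counts were 287 rises and 630 falls, and without any other single array of the 6 they were 59 to 84 rises and 14 to 32 falls.

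**Figure D4:**
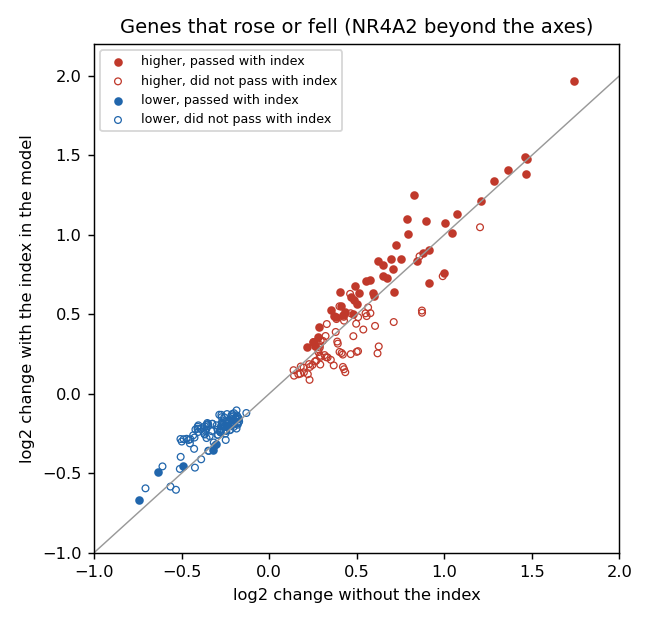
Log2 change of the genes that rose (red) or fell (blue) with torcetrapib, without (horizontal) and with (vertical) the index as a term of the model, filled where the gene also passed with it and with the line of equality in grey. Of the rises 51 of 117 are filled and of the falls 5 of 112, and most of the blue points lie between the line and 0 (NR4A2, at 3.63 and 3.90, is off the axes).

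The array measures many genes by several probe sets. Their positions along the transcripts were not used here, so agreement between them says nothing of the 5′ or the 3′ end. Of the 117 genes that rose 83 had more than 1 single-symbol probe set. Of their 184 other probe sets 135 changed in the same direction as the brightest (73.4%), 42 of them called over all probe sets and 1 called in the opposite direction. Of the 112 genes that fell 85 had more than 1, and 125 of their 214 other probe sets changed in the same direction (58.4%), 9 of them called and 2 called in the opposite direction. Over all 10523 genes with more than 1 probe set 51.5% of the others had the sign of the brightest, and 1.11% of all 41091 probe sets were called. Among other probe sets at or above the signal of the median probe set the share was 78.1% for rises and 61.7% for falls. In 12 of the 83 rises and 17 of the 85 falls no other probe set had the sign of the brightest.

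Probe sets of the leading genes agreed to different degrees. The 3 probe sets of NR4A2 changed by 3.63, 3.90 and 3.84 and those of NR4A3 by 1.46, 2.33 and 2.198, from the brightest to the dimmest, and all 6 were called over all probe sets. Those of NR4A1 changed by 1.36, 0.89 and 0.12, and the dimmest was not called. CCN1 gave 1.28 and 1.72, ZNF331 1.47 and 1.32, and MITF 1.21, 1.10 and 0.63, all called. JUN gave 0.42, 0.46, 0.58 and 0.38, and KLF6 gave 0.51, 0.38, 0.76, 1.11 and 0.04, with the last of each not called. Among the falls DUSP6 gave -0.63, -0.72 and -0.65, all called, HES1 gave -0.75, -0.46 and 0.09 and GATA3 gave -0.61, -0.36 and -0.50. Thus DUSP6 fell by a like amount on each of its probe sets, while the dimmest probe set of HES1 and the dimmer pair of GATA3 were not called.

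Other genes had probe sets that parted. SIK1 gave 1.74 by its brightest probe set, an _s_at type, and 0.31 by the other, which was not called. CREM gave 0.28, 0.51, 0.60, -0.01, 0.29 and 0.18, of which the first 3 were called, and without _x_at and _s_at probe sets its change was -0.00545. KLF2 gave 0.48 and -0.11, C11orf96 gave 0.90 and 0.07, and KCNJ5 ran from -0.27 to 0.46 over its 6 probe sets with only the brightest called. KLF3 gave -0.25, 0.40, 0.16 and 0.03. RCAN1 gave 0.02 by its brightest probe set and 0.66 ± 0.13 by the one next in signal, which was called (adjusted p = 0.0356 over all probe sets). PIP5K1A gave 0.87, 1.73 and 1.62.

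**Figure D5:**
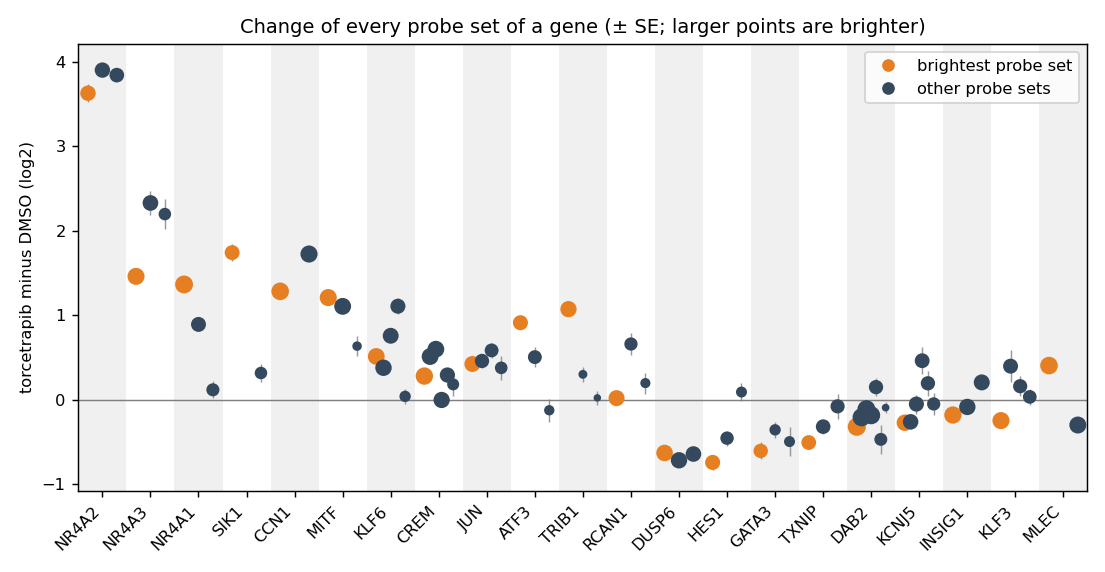
Log2 change with torcetrapib (± SE) of every single-symbol probe set of 21 genes, in order of signal within a gene, with the brightest in orange and the others in dark blue and larger points for brighter probe sets. The probe sets of NR4A2 lie between 3.63 and 3.90 and those of DUSP6 between -0.72 and -0.63, while those of KCNJ5 lie on both sides of 0.

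The difference between probe sets was tested directly. For each of the 10523 genes the brightest probe set minus the mean of the others was compared between torcetrapib and DMSO in limma, and 135 genes passed (1.28%), with 2006 at an unadjusted p under 0.05. In 104 of the 135 the brightest probe set changed less or lower than the others, and in 110 the 2 parts had opposite signs. MLEC, malectin of the endoplasmic reticulum, had the smallest adjusted p (0.000689): its brightest probe set changed by 0.40 and its other by -0.30. EIF4G1, a scaffold of translation initiation, gave -0.25 and 0.49, HTATSF1, a transcription elongation and splicing factor, -0.04 and 0.68, LONRF2 0.14 and 0.73 and DNAJB14 0.54 against a mean of -0.11. The tests also called NR4A1 (1.36 against a mean of 0.50), SIK1 (1.74 and 0.31) and TRIB1 (1.07 against a mean of 0.16, from others with a mean signal of 3.59). DMSO replicate 2 was the DMSO array nearest to torcetrapib in 88 of the 135, and 20 of them were also called with the index in the model. The MLEC call of the rise by its brightest probe set ended without torcetrapib replicate 1 or 2 (adjusted p = 0.165 and 0.143).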

How the data were processed

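RNA of 9 samples of H295R cells was hybridised to Affymetrix arrays. The deposited table holds 1 log2 value per probe set and array, made by the authors with RMA per the submitters' processing notes, and its values run from 2.50 to 14.6. Neither its software version nor the probe definition is given in the sources used here. Arrays have no read depth, and their number limits the precision. Gene symbols came from the platform annotation: 41091 probe sets had 1 symbol, 1801 several and 11721 none, and 62 were controls. Arrays of a group correlated at 0.9971 to 0.9985 over all probe sets.

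Group means of all 9 arrays were fitted with limma 3.58.1 in R 4.3.3 (intensity trend, two-sided, 6 residual degrees of freedom, 5 with the index), with Benjamini-Hochberg adjustment over 19775 genes and a threshold of 0.05. Genes named are the 14 largest rises and 12 largest falls with separate groups, up to 4 members of each of 35 lists by adjusted p, a fixed set of steroid and signalling genes, and the 8 smallest adjusted p of the probe-set test. Other called list members, and genes said to be so, were added after their values were seen. Members and lists were chosen with earlier results of these data known. Lists are described by counts and medians. CYP21A2 was not analysed here, and some results that the plan included are not reported here. On simulated data of these genes 3, 39, 49 and 50 of 50 changes of 1.2, 1.5, 2 and 4-fold were found, with 5 false calls of 146. For the difference between probe sets 5, 40, 48 and 50 of 50 were found, with 3 false calls of 146. Whether these shares of false calls hold for the deposited arrays, where the index varied within the DMSO group, was not tested. Alternatives were other scalings, filters, variance models, probe-set choices and thresholds, the index as a covariate and each array left out.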

Additional observations from a re-analysis of the deposited data

Results flagged for a closer look

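Probe sets with no gene symbol in the annotation used here took no part in the comparison by gene. In a fit of their own 22 of 11721 rose and 2 fell with torcetrapib. The 4 largest rises among them are given as values only. Probe set 235739_at rose by 1.496, from a DMSO mean of 5.43 to 6.93 (limma, adjusted p = 0.000645). Probe set 241955_at rose by 1.33, from 7.98 to 9.31 (adjusted p = 0.000109). Probe set 207779_at rose by 1.31, from 4.21 to 5.52 (adjusted p = 0.00839). Probe set 242349_at rose by 1.19. Of 1801 probe sets with several symbols 12 rose and 1 fell.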

How the results depend on the processing

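The counts of genes that changed, rose and fell (229, 117 and 112) moved with most settings: 50, 40 and 10 without the intensity trend, 403, 177 and 226 over genes at or above the median gene, 120, 79 and 41 after centring the arrays, 507, 171 and 336 after quantile normalisation, 108, 88 and 20 with the mean of all probe sets, 136, 70 and 66 without _x_at and _s_at probe sets, 457, 349 and 108 with all probe sets one by one, 1272, 528 and 744 with array weights, 145, 89 and 56 with only the 6 arrays compared, 78, 62 and 16 at a threshold of 0.01, 503, 228 and 275 at 0.1, and 76, 71 and 5 with the index as a covariate. With the second brightest probe set, a choice made after seeing the data, they were 83, 70 and 13. With robust variance moderation they were 271, 129 and 142. Leaving out 1 array gave 83 to 917 changed, 59 to 287 risen and 14 to 630 fallen genes, the highest values being without DMSO replicate 2. The cause was not tested, save that smaller sets of genes, other thresholds or fewer arrays change the count by construction.

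Genes whose probe sets changed differently numbered 135, and 7 to 1391 without 1 array (1391 without DMSO replicate 2), with 32 with the index as a covariate. The index difference of 0.257 was 0.0957 with the 5′ minus the middle control probe set.

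Some named genes changed direction with the choice of probe set. Without _x_at and _s_at probe sets the log2 change was 0.0887 for HES1, -0.00545 for CREM and 0.117 for BTG1. The same setting and the second brightest probe set both gave -0.130 for HERPUD1, -0.0148 for VHL, -0.107 for KLF2, -0.302 for MLEC and -0.176 for DNAJB14. The mean of all probe sets gave 0.00112 for KCNJ5, 0.0836 for KLF3, 0.0872 for ZNF711, 0.317 for HTATSF1 and 0.186 for SCD. The second brightest gave 0.0490 for KMT2B, 0.0192 for LSS, -0.234 for ANKRD37, 0.395 for KLF3, 0.418 for ZNF711, 0.489 for EIF4G1, 0.676 for HTATSF1, 0.165 for ACLY and 0.00603 for SCD. No paired analysis was possible because the labels give the groups no shared replicate numbers: the serial numbers in the titles differ between groups.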

Other observations

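Genes that belong to no list and were chosen after their values were seen included further rises of signalling genes. PDP1, the phosphatase that switches pyruvate dehydrogenase on, lay at 10.28, 10.11 and 10.23 with DMSO and at 10.86, 10.87 and 10.83 with torcetrapib, a change of 0.65 ± 0.05 (limma, adjusted p = 9.01e-07), and its other probe set gave 0.55. PLK2, a kinase of the immediate early class, lay at 8.08, 7.93 and 8.13 and then at 8.74, 8.79 and 8.72, a change of 0.70 ± 0.07 (adjusted p = 1.96e-05). LINC00473, a noncoding RNA, lay at 6.32, 6.16 and 6.52 and then at 7.08, 7.08 and 7.11, a change of 0.75 ± 0.09 (adjusted p = 0.000502). The groups of all 3 genes were separate, as were those of 228 of the 229 called genes.

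SOCS1, an inhibitor of cytokine receptor signalling, rose by 0.72 ± 0.08 by its brightest probe set, while its other 3 gave 0.70, -0.18 and -0.02. BDNF, a neurotrophin, rose by 0.67 ± 0.10 and its other probe set gave 0.33. RHOB, a small GTPase, rose by 0.48 ± 0.05 and its others gave 1.58, -0.06, 0.17 and -0.04. TENT5A, a poly(A) polymerase, rose by 0.70 ± 0.10, with 0.10 and 0.65 by its others, and the growth factor FGF9 rose by 0.51 ± 0.08, with 0.19 by its other. NRIP1, a corepressor of nuclear receptors, fell by 0.32 ± 0.05, and its other probe set gave -0.69. All 9 genes passed without each of the 6 arrays compared in turn. With the index in the model FGF9 (0.48, adjusted p = 0.109) and NRIP1 (-0.31, 0.0921) did not pass, while the others did. FGF9 was also not called with the mean of all probe sets, nor BDNF without _x_at and _s_at probe sets.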
